A study of Mus musculus with 10 samples.

Results

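The genes described here encode secreted signals, and 1 receptor, that pass between the cells of blood vessels: the platelet-derived growth factors Pdgfa, Pdgfb, Pdgfc and Pdgfd, the PDGF receptor Pdgfra, the vascular endothelial growth factors Vegfa and Vegfc, the angiopoietins Angpt1 and Angpt2, and hepatocyte growth factor, Hgf. These 10 genes were taken from a list of names, out of 21938 protein-coding genes. For each, the binding sites (peaks) of the transcription factor RBPJ were collected whose centre lay in the gene body or in its regulatory domain. This domain reached from 5 kb upstream to 1 kb downstream of the transcription start site and was extended to the neighbouring basal domains by at most 1 Mb. The rule gave 21 of the 11094 peaks. It used position alone, so that peak number and place follow from it in part, whereas width, sequence and motifs do not.

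Occupancy by RBPJ was mapped by ChIP-seq (chromatin immunoprecipitation followed by sequencing) in untreated mouse RD1 cells, labelled as brain pericytes and grown on collagen I in pericyte medium. The labels give neither strain nor genotype. The study's text instead describes the cells used for ChIP-seq as primary brain pericytes in culture, and its methods for such cultures start from brains of Rbpj lox/lox mice, whose Rbpj gene is flanked by loxP sites, and use the cells after repeated passage. Whether RD1 names one of these cultures is not given in the sources used here. No group in the series is labelled as mutant or treated. Beside RBPJ there were histone H3, H3K4me1, H3K4me3 and input samples, with 2 replicates in each of the 5 groups, and these 8 samples were not analysed here. The files of both RBPJ replicates held identical intervals and were counted as 1 list, with no height, score or depth, so no spread between replicates could be given and intervals below cover counting error only. The methods state that pericyte markers were examined in the cultures by RT-qPCR and immunostaining. The peak list holds no RNA values, so neither those markers nor the expression of the genes below was examined here.

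RBPJ is the DNA-binding factor of the Notch pathway. It recognises the core sequence TGGGAA, recruits the Notch intracellular domain and its coactivators when Notch is active, and can recruit corepressors otherwise. In growing vessels, endothelial cells release PDGF-B to attract pericytes, pericytes release angiopoietin-1, which acts on the endothelial receptor Tie2 to quieten the vessel, and angiopoietin-2 can oppose it. VEGF-A drives the growth of blood vessels, VEGF-C that of lymphatic vessels, and HGF, made by mesenchymal cells, acts on the receptor Met.

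The sequences at these genes differed in how many copies of the core motif they held and where. The 7 narrowest peaks, of 300 bp or less, are short enough to be shown whole, except that at Pdgfd only the bases upstream of the gene are given. They are written on the plus strand of GRCm38, as in RefSeq, in lower case with TGGGAA, or TTCCCA where the motif lay on the minus strand, in capitals. Of these 7 peaks, 3 held the motif, where 50.7% of all peaks of this width did: Pdgfb with a pair of sites, Vegfa at 72.1 kb upstream and Hgf with 1 site each.
Pdgfb, 30.7 kb downstream of the start, chr15:79984135-79984361, plus strand: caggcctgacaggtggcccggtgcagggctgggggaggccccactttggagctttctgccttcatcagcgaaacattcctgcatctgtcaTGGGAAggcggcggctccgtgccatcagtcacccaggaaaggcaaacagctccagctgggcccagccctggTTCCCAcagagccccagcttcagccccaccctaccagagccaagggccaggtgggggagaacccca
Pdgfc, 341 kb downstream, chr3:81377515-81377777, plus strand: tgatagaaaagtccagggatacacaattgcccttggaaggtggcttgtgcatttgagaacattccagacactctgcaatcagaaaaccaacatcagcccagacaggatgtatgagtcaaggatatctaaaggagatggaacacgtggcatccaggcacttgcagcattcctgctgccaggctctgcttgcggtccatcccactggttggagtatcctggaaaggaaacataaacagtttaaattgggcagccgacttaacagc
Pdgfd, the start site, chr9:6168483-6168583, plus strand: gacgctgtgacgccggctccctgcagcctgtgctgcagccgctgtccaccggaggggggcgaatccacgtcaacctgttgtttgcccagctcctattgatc
Vegfa, 139 kb downstream, chr17:45893707-45893988, plus strand: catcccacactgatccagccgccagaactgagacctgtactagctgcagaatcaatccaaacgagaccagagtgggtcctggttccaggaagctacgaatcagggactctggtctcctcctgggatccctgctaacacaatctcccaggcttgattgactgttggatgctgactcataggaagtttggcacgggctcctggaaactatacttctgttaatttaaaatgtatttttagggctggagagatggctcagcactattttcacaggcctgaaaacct
Vegfa, 72.1 kb upstream, chr17:46104405-46104621, plus strand: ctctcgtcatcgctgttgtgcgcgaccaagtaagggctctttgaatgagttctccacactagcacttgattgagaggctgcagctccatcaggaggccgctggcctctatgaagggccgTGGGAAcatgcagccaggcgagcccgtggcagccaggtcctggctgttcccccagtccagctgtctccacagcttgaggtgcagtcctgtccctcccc
Angpt2, 90.6 kb downstream, chr8:18650825-18651021, plus strand: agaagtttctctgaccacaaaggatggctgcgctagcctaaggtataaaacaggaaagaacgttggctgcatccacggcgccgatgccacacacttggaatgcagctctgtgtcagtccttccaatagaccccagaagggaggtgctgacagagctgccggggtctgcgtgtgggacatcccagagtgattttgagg
Hgf, 369 kb upstream, chr5:16184170-16184421, plus strand: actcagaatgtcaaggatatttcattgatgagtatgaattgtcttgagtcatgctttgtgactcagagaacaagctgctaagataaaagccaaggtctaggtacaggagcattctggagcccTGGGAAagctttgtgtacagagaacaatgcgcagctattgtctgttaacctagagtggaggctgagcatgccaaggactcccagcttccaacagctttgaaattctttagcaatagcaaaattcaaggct

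In the wider peaks, 11 of 14 held TGGGAA, beside 67.6% of all peaks over 300 bp. To show what stood around the motif, the site nearest to the centre of each such peak is given with 12 bases to either side, read along the strand that carries TGGGAA, which is in capitals. The intronic Angpt1 peak is shown as the longer stretch with both of its sites, which faced each other with 14 bp between them.
Pdgfa, 5′ region, chr5:138994277-138994306, minus strand: gtagcctgggacTGGGAAgggtgggcagcg
Pdgfb, 39.2 kb upstream, chr15:80054022-80054051, plus strand: tctctggcctccTGGGAAagaactctcctc
Pdgfb, 68.0 kb upstream, chr15:80082491-80082520, minus strand: cagccggcatcgTGGGAAagtgaagagctt
Pdgfc, first exon, chr3:81037187-81037216, plus strand: ttgtttaaacctTGGGAAactggttcaggt
Pdgfra, 5′ region, chr5:75154344-75154373, plus strand: ggctgggcggtgTGGGAAacggctttttgg
Pdgfra, intron, chr5:75185928-75185957, minus strand: ggacacactacgTGGGAAgaaaagaaatca
Pdgfra, 215 kb downstream, chr5:75366634-75366663, plus strand: tgggggaaagctTGGGAAgttagtcagatc
Pdgfra, 392 kb downstream, chr5:75543806-75543835, plus strand: gtttgaggtcacTGGGAAatgtccttcaag
Vegfa, first intron, chr17:46030061-46030090, plus strand: ggggggtgggggTGGGAAatggggtgatgt
Angpt1, intron, chr15:42520366-42520421, plus strand: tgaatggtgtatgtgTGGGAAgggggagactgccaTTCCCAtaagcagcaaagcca
Angpt1, coding exon, chr15:42676208-42676237, plus strand: tgctgaagtttcTGGGAAgagaaatccggc
The last set completes the 5 sites at these genes with the longer form CGTGGGAA, of which those at Pdgfb, at 68.0 kb, in the Pdgfra intron and at Vegfa, at 72.1 kb, are printed above. These were picked after the sites were read.
Pdgfa, 5′ region, chr5:138994052-138994081, minus strand: cagcccctgtcgTGGGAActtcgtggttga
Pdgfra, 215 kb downstream, chr5:75368465-75368494, plus strand: aaaaggaccacgTGGGAAatctccttaaat

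All 10 genes had at least 1 RBPJ peak. Under the same rule 46.7% of all protein-coding genes had a peak. The vessel-signal genes lie in long stretches with few neighbours: the median length searched was 672 kb, against 93.8 kb over all genes, and 58.2% of the genes with a searched length within their range had a peak. Chromosomes 4, 7 and X held few peaks and none of the 10 genes. On the other 17 autosomes, a division made after the counts were seen, 55.3% of all genes and 67.6% of those in the length range had a peak. A peak was centred in the gene body at 6 of the 10 genes, against 25.2% of all genes, and in the basal domain at 4, against 27.1%. These counts go by peak centres. By overlap, peaks of Vegfa and Pdgfra also reached into the basal domain, and that of Vegfc into the gene body. Mean peak number was 2.1 per vessel-signal gene and 1.23 per gene in that range. Vegfa held 5 peaks, Pdgfra 4, Pdgfb 3, Pdgfc and Angpt1 2 each, and Pdgfa, Pdgfd, Vegfc, Angpt2 and Hgf 1 each. At least 5 peaks were found at 4.40% of the genes in the length range, at least 4 at 8.03% and at least 3 at 15.2%. As a description, an even spread of peaks along each chromosome would have placed 35.7 peaks in the length searched, and 21 were there. Pdgfb (3 against 0.656), Vegfa (5 against 2.24) and Pdgfra (4 against 2.93) held more than this even spread, whereas the other 7 genes held fewer, among them Angpt1 (2 against 7.71), Pdgfd (1 against 5.66), Hgf (1 against 5.06) and Vegfc (1 against 4.39). An even spread is not what genes of such length hold, however. Among all genes with over 800 kb searched, as at Angpt1, Pdgfd, Hgf and Vegfc, the median was 1 peak and the mean 1.48.

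**Figure D1:**
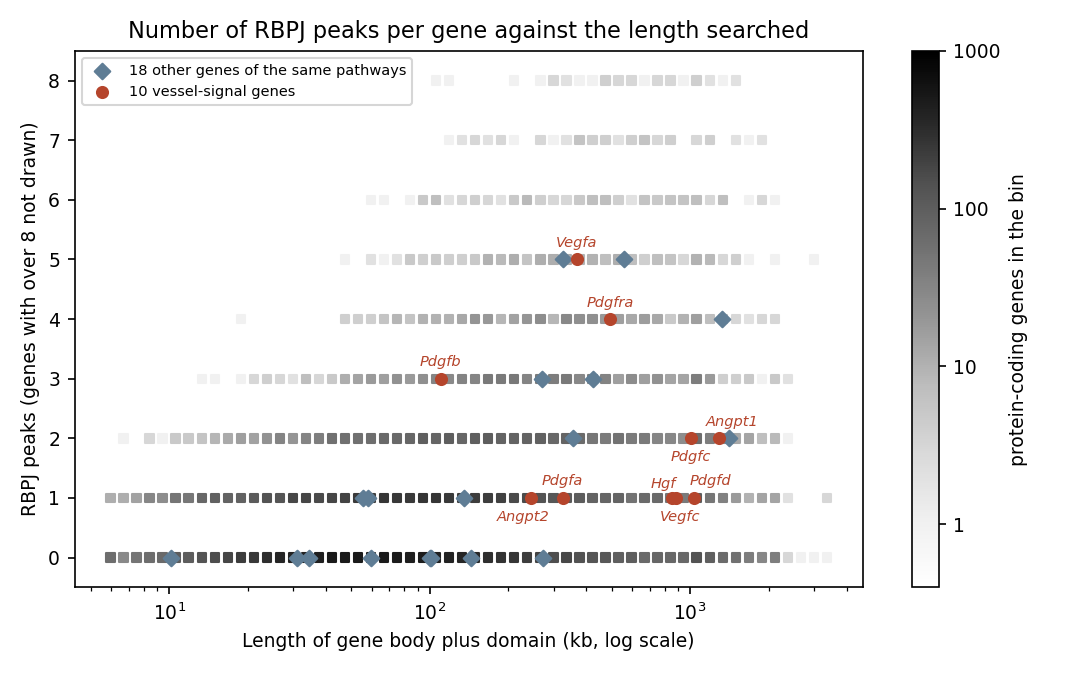
Number of RBPJ peaks per gene (vertical axis) against the length of gene body plus domain in kb (horizontal axis, log scale). Grey squares count protein-coding genes, red circles are the 10 vessel-signal genes and blue diamonds the 18 other genes of the same pathways. Vegfa, Pdgfra and Pdgfb stand at 5, 4 and 3 peaks, and 5 of the 10 genes at 1.

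Assignment to a gene rests on position, and many of these peaks had other candidates. Only 11 of the 21 peaks lay nearer to the annotated start of the vessel-signal gene than to that of any other protein-coding gene. Another 10 were nearer to a neighbour, and 17 of the 21 fell in the domain or body of another protein-coding gene as well. The peaks without another candidate were the start-site peaks of Pdgfc, Pdgfd, Vegfc and Angpt1. At the border of the domains, the peaks just inside were the farthest upstream peak of Vegfa, centred 1.47 kb from the edge, and that of Pdgfb, 3.36 kb from it. Just outside, peaks were centred 0.788 kb past the edge of the Angpt2 domain, 0.924 kb past that of Angpt1, 0.946 kb past that of Hgf and 5.28 kb past that of Vegfc.

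A peak was centred within 5 kb of the annotated start of 7 of the 10 genes, Pdgfa, Pdgfc, Pdgfd, Pdgfra, Vegfa, Vegfc and Angpt1. Pdgfb, Angpt2 and Hgf had none there. The share of all genes with a peak within that distance is not given here. In the basal domain, a narrower window, 27.1% of all genes had a peak centred. At 4 of the 7, Pdgfd, Vegfa, Vegfc and Angpt1, the peak covered the annotated start, and at Pdgfa, Pdgfc and Pdgfra it began downstream of it. These 7, called start-site peaks below by their distance alone, had a median width of 2564 bp (252 to 4784), against 833.5 bp for the 5740 peaks of the list within 5 kb of a gene start, and 4 of the 7 were at least 2 kb wide, against 16.2% of those 5740. The difference depended on the start used. The 7 peaks within 1 kb of any coding transcript start, a set without that of Vegfa, had a median of 1052 bp, against 829 bp in the list. The other 14 peaks had a median width of 340 bp (197 to 4330), against 526 bp for all 5354 remaining peaks. Over all 21 peaks, 6 were at least 2 kb wide, beside 15.6% of the list, and 7 were 300 bp or narrower, beside 15.9%. These 14 were over 5 kb from any annotated gene start, though 1 of them held a coding transcript start of another gene. Of the 14, 9 lay downstream of the start of their vessel-signal gene and 5 upstream, 7 lay past the end of that gene and only 2, at Pdgfra and Angpt1, inside it.

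**Figure D2:**
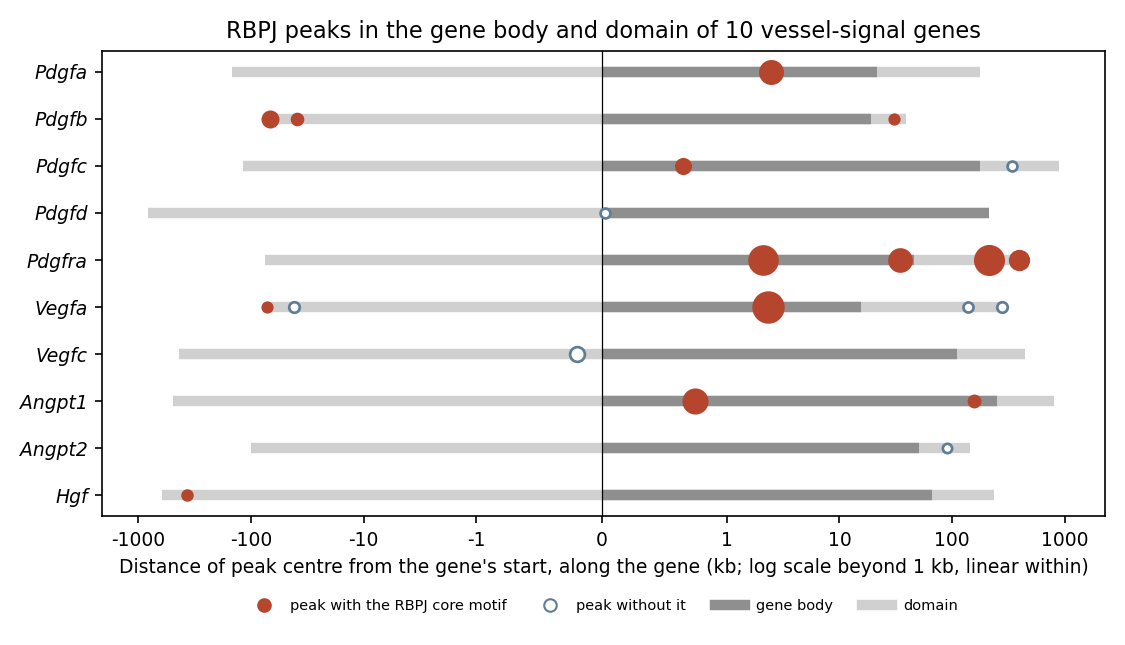
Distance of each of the 21 peak centres from the start of its gene in kb, signed along the gene so that positive values are downstream, for the 10 genes (log scale beyond 1 kb, linear within). Dark and light bars are the gene body and the domain. Filled and open symbols separate peaks with and without the RBPJ core motif, and symbol size follows width. Peaks at 7 genes are centred within 5 kb of the start, and the farthest were at 392 kb downstream of Pdgfra and 369 kb upstream of Hgf.

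Among the PDGF ligands, Pdgfa, Pdgfc and Pdgfd had a peak centred within 5 kb of the annotated start and Pdgfb had none. Only the Pdgfd peak covered that start. The Pdgfa peak (chr5:138993595-138996158, 2564 bp) was centred 2494 bp downstream of the annotated 5′ end, but its centre was 77 bp from the start of another coding transcript, and 3 of the 4 coding transcript starts of Pdgfa lay inside it. It was GC-rich (70.0%), with 16 GC boxes and 3 TGGGAA sites, none of them in the central 200 bp. Pdgfc, a ligand of Pdgfra that is activated by cleavage, carried a peak of 891 bp (chr3:81036625-81037515) that began 209 bp after the start and lay within the first exon, of which 812 bp were untranslated. Its second peak, 341 kb downstream and past the end of the gene, held no TGGGAA but an AP-1 site, an E-box and a pair of TEAD sites in 263 bp. At Pdgfd a narrow peak of 252 bp (chr9:6168483-6168734) was centred 24 bp from the start, the closest of all 21, covered all 3 coding transcript starts and held no TGGGAA.

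Pdgfb, the endothelial signal that recruits pericytes, had 3 peaks although its searched length of 110 kb was the shortest of the 10, and the closest was 30.7 kb from its start. This peak, chr15:79984135-79984361, lay past the end of the gene and 13129 bp from the start of Cbx7, a Polycomb gene, which was its nearest gene. It was 227 bp wide, narrower than most of the list (percentile 6.81 of width), with both TGGGAA sites in the central 200 bp. The next, chr15:80054003-80054389, lay 39.2 kb upstream with 1 TGGGAA and 1 AP-1 site. The third, chr15:80082451-80083502, lay 68.0 kb upstream in an intron of Rpl3, a ribosomal protein gene. Its centre was 430 bp from the start of a coding transcript of another gene, which lay inside the peak, although no annotated gene start did. Both upstream peaks were nearest to Syngr1, a synaptic vesicle gene, by gene start.

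The receptor gene Pdgfra, which marks fibroblasts and oligodendrocyte precursors rather than most brain pericytes, had 4 wide intervals, of 4197, 2483, 4330 and 1692 bp. All 4 lay at or downstream of the start. The first (chr5:75152302-75156498) began 10 bp after the annotated start, was 63.4% intronic and held 4 of the 7 coding transcript starts of the gene, with 3 TGGGAA sites, 1 of them 42 bp from the centre. The second (chr5:75185190-75187672) lay in an intron 34.1 kb downstream and held 4 TGGGAA sites. The third (chr5:75364638-75368967) lay 215 kb downstream in the space before Kit, the stem cell factor receptor gene, and with 7 sites held as many as any of the 21 peaks, yet none in its central 200 bp. The fourth (chr5:75543547-75545238) was 392 kb from Pdgfra and 30524 bp upstream of Kit, with 1 site. By annotated gene starts both the third and the fourth were nearer to Kit than to Pdgfra. By coding transcript starts the third was nearer to Pdgfra, with a start 204968 bp away, so that its nearest gene depends on the start used. For both peaks the assignment was not tested.

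**Figure D3:**
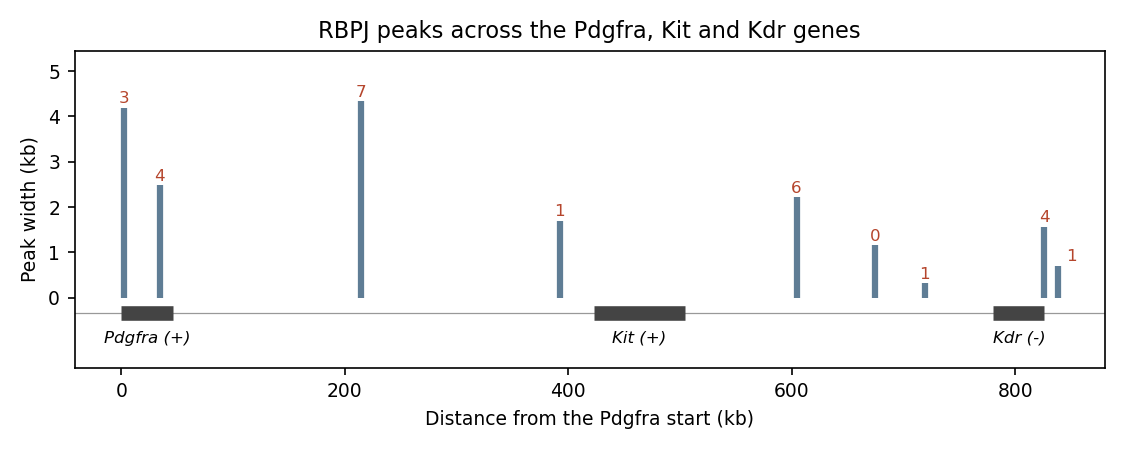
RBPJ peaks along the chromosome from the Pdgfra start, in kb, with the bodies of Pdgfra, Kit and Kdr to scale. Bars mark peaks, with their height showing peak width in kb, and red numbers count the core motif sites in each. The 4 peaks assigned to Pdgfra, with 3, 4, 7 and 1 sites, lie between its start and Kit, and those farther on were assigned to Kdr.

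The VEGF genes differed from each other. Vegfa had 5 peaks, of which 1 covered the first part of the gene (chr17:46027662-46032445, 4784 bp). This was the widest of the 21, wider than 98.1% of the list, and held all 4 coding transcript starts. It was centred 2316 bp downstream of the start in intronic sequence and was 74.8% intronic, with 6 TGGGAA sites, of which 2 were in the central 200 bp, and 8 GC boxes. The site nearest to the gene start was 1941 bp downstream of it. The other 4 Vegfa peaks were 217 to 342 bp wide and lay 279 and 139 kb downstream and 41.7 and 72.1 kb upstream. Only the last of them held TGGGAA, 13 bp from its centre and in the form CGTGGGAA, and it lay 6473 bp upstream of Mrps18a, a mitochondrial ribosomal protein gene. The pair downstream each held an AP-1 site in the central 200 bp. Vegfc had 1 peak (chr8:54076939-54077888, 950 bp), centred 193 bp upstream of its start. It covered both coding transcript starts, had a GC content of 70.9%, the highest of the 21, and held no TGGGAA over its whole length.

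Angpt1, the pericyte-derived agonist of Tie2, had a peak at its start and another inside the gene. The start-site peak (chr15:42674805-42677662, 2858 bp) reached from 685 bp upstream to 2172 bp downstream and covered the only coding transcript start. Its centre lay in the first coding exon, and 7 TGGGAA sites were spread over it, 1 of them 11 bp from the centre. With a GC content of 42.7% it was the most AT-rich start-site peak. The intronic peak (chr15:42520102-42520519, 418 bp), 157 kb downstream, held the only facing pair of motifs among the 21 peaks, with 14 bp between them. Facing motifs can hold paired Notch complexes at some spacings, and whether this pair does was not tested. Such a pair, of TGGGAA or TGAGAA with 10 to 20 bp between the motifs, was found in 2.63% of all peaks. Angpt2 lies within the gene Mcph1, which acts in chromosome condensation, and its only peak (chr8:18650825-18651021, 197 bp, the narrowest of the 21) was in an intron of Mcph1, 90.6 kb downstream of the Angpt2 start, with no TGGGAA but 1 RUNX and 1 TEAD site. Its centre was 18331 bp from the nearest coding transcript start.

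Hgf had no peak within 369 kb of its start. Its only peak, chr5:16184170-16184421, lay upstream in an intron of Cacna2d1, a calcium channel subunit gene, 249 kb from the nearest coding transcript start. In its 252 bp a TGGGAA site stood 1 bp from the centre, beside 2 AP-1 sites. The basal domain and the gene body held no peak, and the searched length was 851 kb.

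**Figure D4:**
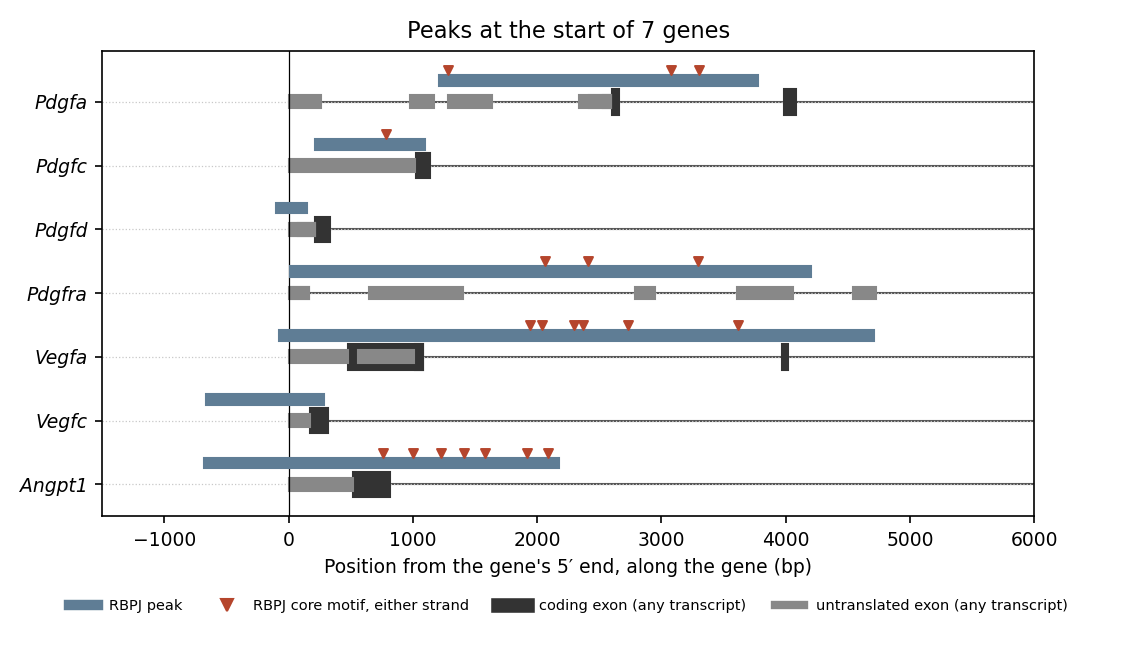
The 7 peaks centred within 5 kb of a gene start, drawn to scale in blue along the direction of each gene, in bp from the annotated start, above its coding (black) and untranslated (grey) exons. Red triangles mark the core motif on either strand. The peaks of Vegfa, Pdgfra, Angpt1 and Pdgfa extend over 2 kb into the gene, whereas that of Pdgfd spans 252 bp.

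Of the 7 start-site peaks, 6 were centred downstream of the annotated start, 4 within 1 kb of it, and 65.3% of the 5740 start-site peaks of the list were centred downstream. A coding transcript start of the gene itself lay inside 6 of them, the exception being Pdgfc. Their median GC content was 61.0% (42.7 to 70.9) and their median ratio of observed to expected CpG 0.716, against 62.5% and 0.765 for all peaks within 5 kb of a start. The other 14 peaks had medians of 49.9% and 0.267, against 49.8% and 0.233. All 7 start-site peaks held a GC box (GGGCGG, the motif of Sp1), against 84.4% of start-site peaks of the list, and 2 of the other 14, against 27.8%. In GC content and CpG ratio the medians of both sets were close to those of the list. When the distance to any coding transcript start was used, 7 of the 21 peaks (33.3%, exact binomial 95% interval 14.6 to 57.0) lay within 1 kb, where 49.5% of all peaks did. Over 50 kb from any such start were 5 of the 21 (23.8%, 8.22 to 47.2) and 15.6% of all peaks.

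The core motif TGGGAA, searched on both strands, was central, that is within the middle 200 bp, in 7 of the 21 (33.3%, 14.6 to 57.0), beside 25.8% of all peaks, and in the whole length of 14 (66.7%, 43.0 to 85.4), beside 64.9%. Over all bases of the 21 peaks there were 40 sites, or 1.38 per kb, against 1.25 per kb in the list. Among the 7 peaks within 1 kb of a coding transcript start it was central in 2, beside 16.2% of such peaks in the list, and among the other 14 in 5, beside 35.3%. Start-site peaks held 1.21 per kb (1.08 in the list) and the others 1.60 per kb (1.45 in the list). For TGGGAA the list's shares in the central window and over whole peaks lay within the intervals. GTGGGAA, which contains the core, was in the central 200 bp of 5 peaks (23.8%, 8.22 to 47.2), beside 9.30% of all peaks, and in the whole length of 10 (47.6%, 25.7 to 70.2), beside 29.3%. Of the 40 sites, 14 were preceded by G, 5 of these as CGTGGGAA and 5 as TGTGGGAA, the forms closest to the full recognition sequence. Within 100 bp of a peak centre lay 10 of the 40, and 4 were in soft-masked repeats.

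**Figure D5:**
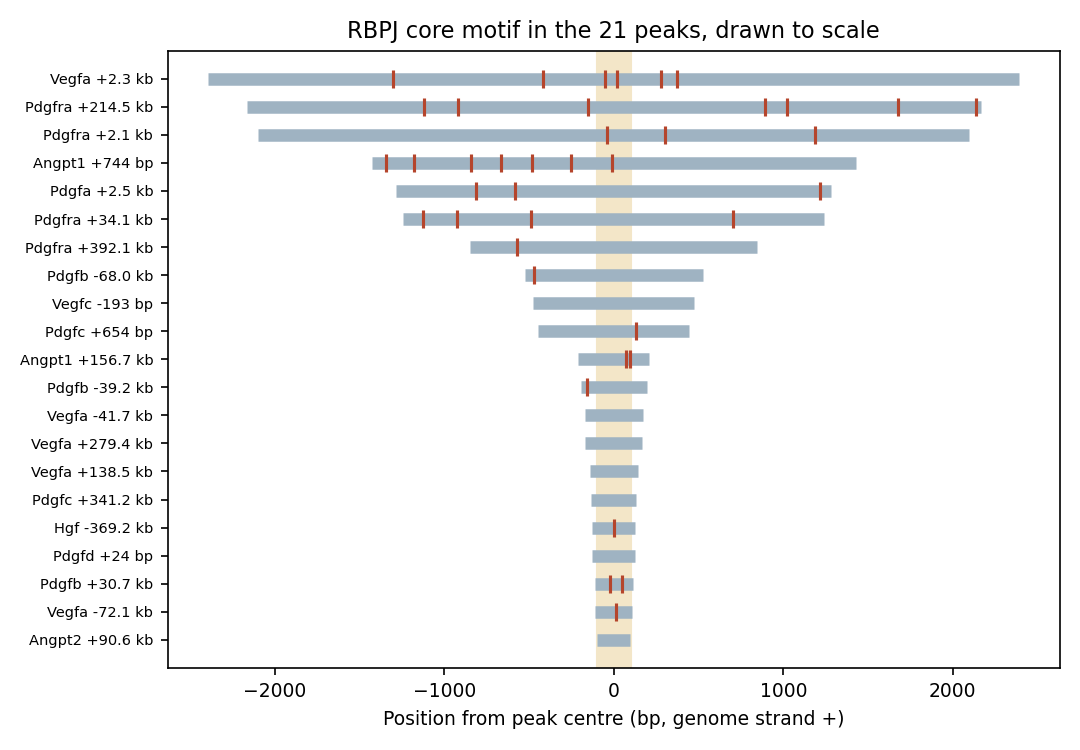
Positions of the RBPJ core motif (red ticks) in the 21 peaks (grey bars), drawn to scale in bp from the peak centre and ordered by width. The shaded band marks the central 200 bp. Of the 40 sites 10 are within 100 bp of the centre, and 7 peaks, among them those of Vegfc and Pdgfd at the start, have none.

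Motifs of other factors were counted in the same way. The AP-1 site TGACTCA, bound by Fos and Jun proteins, was in the central 200 bp of 5 peaks (23.8%, 8.22 to 47.2), beside 8.29% of all peaks, and in the whole length of 11 (52.4%, 29.8 to 74.3), beside 24.8%. Of the 11, 8 were among the 14 peaks over 5 kb from an annotated gene start, where 35.9% of the list's peaks held it. The other 3 were among the start-site peaks, where 14.4% did. The 5 with a central AP-1 site were those of Pdgfb at 39.2 kb, Pdgfc at 341 kb, both downstream Vegfa peaks and Hgf, which had 2, and all 5 lay over 5 kb from the start of their gene. The TEAD motif GGAATG was central in 5 peaks (beside 11.9% of all) and the RUNX motif TGTGGT in 4 (beside 12.1%). TGAGAA was central in 2 (beside 14.4%), the E-box CACGTG in 2 (beside 4.11%) and the GC box in 4 (beside 30.3%). Over whole peaks, TEAD motifs were in 11 (52.4%, beside 39.4% of all) and RUNX motifs in 7 (33.3%, beside 40.0%), so that RUNX was above the list's share in the central window and below it over the whole length. The E-box did likewise, in 3 whole peaks (14.3%, beside 17.8%). TGAGAA was in 8 (38.1%, beside 45.3%) and the GC box in 9 (42.9%, beside 57.1%). GGAATG shares bases with the RBPJ core where TGGGAA is followed by TG. No test was made on these counts, and a match is a description of the sequence only.

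RefSeq promoter windows, from 250 bases before to 50 after a start, were available for 7 of the 10 genes, as 10 windows. Of these, 5 windows at 4 genes (Pdgfa with 2, Pdgfd, Vegfa and Vegfc) overlapped a peak, and none at Pdgfc, Pdgfra or Hgf did. The share of all promoters that overlapped a peak is not given here, so this count has no background. TGGGAA was in 5 of the 10, against 25.6% of 32851 promoters of the same length, and in 3 of the 5 that overlapped a peak. At Vegfa and Pdgfd, however, the TGGGAA sites of the overlapped window lay outside the interval of the peak.

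The other genes of the same pathways were counted from a list of 18 ligands, receptors and modifiers. Of these, 10 had a peak, with 27 peaks in all against 27.3 from an even spread, and 47.1% of genes in their length range had one. Met, the receptor of Hgf, and Kdr, the main receptor of VEGF-A, held 5 peaks each, with the closest centred 103 and 127 bp from the start. Flt1, which also binds VEGF-A, had 3, the closest 554 bp upstream of the start, and Nrp2, a co-receptor, had 2, with 1 centred 4 bp upstream. These were the 4 genes of the 18 with a peak centred in the basal domain. Nrp1 had 4, of which 1 of 6601 bp was centred 1630 bp downstream of its start and covered that start. Pdgfrl had 3 peaks, Ptprb, a phosphatase that acts on Tie2, had 2, and Pgf and Angpt4 had 1 each, 8193 and 51221 bp from the start. Pdgfrb, the receptor of PDGF-B and the defining pericyte marker, was covered by a single interval of 185896 bp, too wide to place a site. The 8 genes without a peak were Vegfb, Vegfd, Flt4, Tek, Tie1, Mst1, Mst1r and Hgfac.

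Set beside each other, Hgf had 1 distant peak and its receptor gene Met 5, Vegfa had 5 and Kdr 5, and Angpt1 and Angpt2 had 2 and 1 where Tek and Tie1, the genes of the angiopoietin receptor and its partner, had none. Tek and Tie1 lie on chromosome 4, which held 11.9 peaks per 100 protein-coding genes, and Vegfd on chromosome X, with 15.2. Chromosome 7 was also low, with 7.22, and the 17 remaining autosomes held 48.0 to 78.7. The part of this low density in the lack of a peak at Tek, Tie1 and Vegfd was not tested.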

How the data were processed

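RBPJ ChIP-seq peaks from RD1 cells were analysed. Per the submitters' processing notes and the study's methods, Bowtie alignment to GRCm38 was followed by removal of duplicates with Picard and SAMtools and by peak calling with MACS2 and PeakRanger. Peaks within 2 kb were merged, and a region was retained when 3 or more calls, out of both callers and both replicates, overlapped there. The deposited file made by the authors gives this consensus list as chromosome positions in bp, counted from 1. Merging widens intervals, so that a centre need not be the bound site. No unused column of sample values was present.

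Domains were computed from GENCODE release M21 (GRCm38.p6) protein-coding genes and peak centres, and motifs were searched on both strands. Shares carry 95% exact (Clopper-Pearson) intervals and no test was made. The domain and motif steps were tested on simulated data. Members and lists were chosen with earlier results of these data known. Named genes were all members with each peak, the 18 pathway genes, and the nearest gene to a peak. For sequences, narrow peaks were taken whole and, for wider ones, the TGGGAA site nearest to the centre. Kit and Syngr1 appear as such nearest genes, Rpl3, Mcph1 and Cacna2d1 as the genes around a peak, and these were picked with their values in view. Other settings varied the domain, the start site, peak width, distance, window and motif. A planned selection of high-scoring peaks was left out because no score is given. Software was scipy 1.17.1, pandas 2.3.3, numpy 2.4.6 and matplotlib 3.10.9 under Python 3.11.15.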

Additional observations from a re-analysis of the deposited data

How the results depend on the processing

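Leaving aside the omission of a replicate, which could change nothing here, 69 values were computed under alternatives, of which 51 stayed within 1.5 times the reported value and 18 did not. Among the 51, the genes with a peak fell from 10 to 7 with peaks of at least 500 bp and with the nearest start only, and to 9 with domains of at most 100 kb, where the peaks fell from 21 to 15. Restricting assignment to peaks centred in the basal domain left 4 of the 10 genes with a peak, and 4 of the 18 pathway genes. The 4 peaks at the former had a median width of 920.5 bp and a median distance of 423.5 bp. All 4 were within 1 kb of a start and 1 held TGGGAA. Domains of at most 100 kb gave a median width of 891 bp in place of 418 bp. Peaks of at least 500 bp numbered 10, with a median width of 2523.5 bp, a median distance of 2405 bp in place of 41716 bp, and 3 with TGGGAA. With the nearest start only, an alternative chosen after seeing the data, there were 11 peaks, of median width 950 bp and median distance 2316 bp, 4 with TGGGAA. A distance limit of 500 bp left 4 peaks near a start, and searching whole peaks gave 14 with TGGGAA. Leaving out either RBPJ replicate gave 10 genes and 21 peaks in both cases, as the lists are identical. No paired analysis was possible because the replicates share 1 list and no test was made. With neither depth nor peak height, weak and strong sites could not be told apart.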
